A study of Mus musculus with 12 samples.

Results

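The genes described here make, package, take up or break down GABA: *Gad1*, *Gad2*, *Slc32a1*, *Slc6a11* and *Abat*, 5 of the 21911 protein-coding genes annotated on mm10. They were chosen by name, and each was read in 8 lists of histone modification peaks, in a window from 5 kb upstream of the annotated start to the end of the gene. H3K27ac regions found in only 1 population were also collected up to 400 kb from each start. The cells came from the cerebral cortex of *Gad67-GFP* heterozygote mouse pups at postnatal day 2, of mixed background with CD-1 outcrosses, with the tissue of 2 to 3 litters pooled in a sample. Fluorescence-activated sorting gave GFP+ immature cortical interneurons (CINs) and GFP- cells (non-CINs), a mixture that includes glutamatergic neurons and glia. Native ChIP-seq with antibodies against H3K27ac or H3K27me3 was run on 2 replicates of each population, with matched inputs that enter only through the peak calling. Every sample, CIN or non-CIN, came from animals that carry the GFP allele. That allele is a knock-in of GFP at *Gad1* itself, so the populations were sorted on the activity of 1 of the 5 loci, 1 of the 2 *Gad1* alleles is altered in all samples, and values at *Gad1* are not independent of the sort.

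GABA is the main inhibitory transmitter of the cortex and is made from glutamate by glutamate decarboxylase, which exists as GAD67 (*Gad1*) and GAD65 (*Gad2*). The vesicular transporter VGAT (*Slc32a1*) loads it into synaptic vesicles, the plasma membrane transporter GAT-3 (*Slc6a11*), found mainly in astrocytes, takes it up, and GABA transaminase (*Abat*) degrades it in neurons and glia. H3K27ac marks active promoters and enhancers, and H3K27me3 is the mark of Polycomb repression. Both fall on the same lysine of histone H3, so a single histone tail cannot carry both at once.

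The promoter table of RefSeq (GRCm38.p6, the build of mm10) held 4 of the 5 genes, all but *Abat*, with starts that for *Gad1* and *Gad2* lie inside the 5′ UTR annotated by GENCODE. The bases upstream of the RefSeq start are shown for these 4 because the genes differ there in H3K27ac and H3K27me3, and for *Gad1* and *Gad2* they stop before the annotated UTR. Capitals mark CTTTGT, a SOX core, on either strand. The homeodomain core bound by DLX and LHX factors, TAATTA, was also searched on both strands, as was the MEIS core, which reads CTGTCA, and neither is in these windows.
*Gad1*, chr2:70561879-70562041, + strand: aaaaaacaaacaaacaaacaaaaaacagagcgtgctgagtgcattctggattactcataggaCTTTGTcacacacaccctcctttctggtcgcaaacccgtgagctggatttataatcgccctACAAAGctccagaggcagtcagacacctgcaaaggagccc
*Gad2*, chr2:22622077-22622204, + strand: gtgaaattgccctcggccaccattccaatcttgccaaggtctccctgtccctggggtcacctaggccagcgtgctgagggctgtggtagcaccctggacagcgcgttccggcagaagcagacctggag
*Slc32a1*, chr2:158610508-158610757, + strand: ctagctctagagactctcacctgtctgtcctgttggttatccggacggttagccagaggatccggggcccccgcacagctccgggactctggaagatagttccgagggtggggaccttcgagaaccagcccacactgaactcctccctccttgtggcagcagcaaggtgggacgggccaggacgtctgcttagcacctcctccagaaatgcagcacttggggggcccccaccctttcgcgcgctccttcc
*Slc6a11*, chr6:114130991-114131240, + strand: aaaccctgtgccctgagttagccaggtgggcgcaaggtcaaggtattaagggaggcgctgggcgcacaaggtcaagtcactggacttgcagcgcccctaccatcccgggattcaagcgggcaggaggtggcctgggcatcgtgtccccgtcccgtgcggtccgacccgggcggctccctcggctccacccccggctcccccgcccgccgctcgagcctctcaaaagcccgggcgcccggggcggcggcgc
The SOX core was present 2 times in the 250 bases before the RefSeq start of *Gad1* and in none of the other 3 windows, while 16.5% of 32841 RefSeq promoters of this length held it. The shares were 4.84% for the DLX and LHX core and 15.9% for the MEIS core. The windows held 17 CpG at *Gad1*, 13 at *Gad2*, 12 at *Slc32a1* and 25 at *Slc6a11*, against a median of 6 over all promoters, and 78.3%, 70.6%, 68.5% and 90.4% of promoters had as many or fewer. The *Gad1* and *Gad2* windows lay in full under H3K27ac peaks in both CIN lists and under no H3K27ac peak of non-CINs. At *Slc32a1* H3K27ac covered all 250 bases in CIN replicate 1 and none in CIN replicate 2, where peaks lay on either side. The *Slc6a11* window met H3K27ac only in non-CIN replicate 1, over 198 bases. H3K27me3 covered all 250 bases of the *Gad1* and *Gad2* windows in all 4 lists, 234 to 250 bases of the *Slc32a1* window, and none of the *Slc6a11* window.

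The peak lists differed in length, with 62505 and 46310 H3K27ac peaks for CINs versus 59667 and 46040 for non-CINs, and 38158 and 36662 H3K27me3 peaks for CINs versus 45081 and 42575 for non-CINs. Lengths under peaks, which depend on what was called in each list, and the percentile of a peak's fold enrichment within its own list are therefore given rather than fold enrichment itself. Of 5 interneuron markers, *Dlx1*, *Dlx2*, *Dlx5* and *Dlx6* had H3K27ac peaks in both CIN lists and in no non-CIN list, while *Lhx6* had none in any list. Markers of glia were not absent from the GFP+ lists, since the windows of 5 of 5 astrocyte markers held H3K27ac peaks in all 4 lists, with a summed length of 58703 bp and 53827 bp for CINs versus 83731 bp and 87133 bp for non-CINs. All 4 markers of the oligodendrocyte lineage held peaks in every list, over 11963 bp and 14933 bp for CINs versus 12425 bp and 14566 bp for non-CINs. Of 4 microglial markers 3 did, over 12878 bp and 11572 bp for CINs versus 18169 bp and 15328 bp for non-CINs, and *Aif1* had no peak in any list. Of 3 endothelial markers 1 did, over 11683 bp and 6631 bp for CINs versus 12652 bp and 8534 bp for non-CINs. Of the 6 glutamatergic markers, 4 and 3 held H3K27ac peaks in CINs and 2 and 4 in non-CINs, with 1 marker longer and 1 shorter in both CIN lists, and the defining genes *Slc17a7* and *Neurod2* had no peak in any list. Their summed length was 7310 bp and 3490 bp for CINs versus 4610 bp and 6407 bp for non-CINs. In tissue pools, a smaller share of cells with a mark and less of it in each cell cannot be told apart. With 2 lists against 2, the smallest two-sided exact permutation p is 0.333, so no difference could pass 0.05. Each comparison called here as both lists of a population above both of the other has that p, and its count is set beside the share of all genes with the same order.

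In CINs, *Gad1*, *Gad2*, *Slc32a1* and *Abat* were covered by H3K27ac over a greater length in both replicates than in either non-CIN replicate, and *Slc6a11* over a shorter length. This made 4 of 5 genes higher, where 18.1% of the 14650 genes with any H3K27ac peak were, and 1 of 5 lower, where 18.0% were. The lists for *Gad1*, *Gad2* and *Slc32a1* were nearly empty in non-CINs, whereas *Abat* and *Slc6a11* held H3K27ac in all 4 lists.

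**Figure D1:**
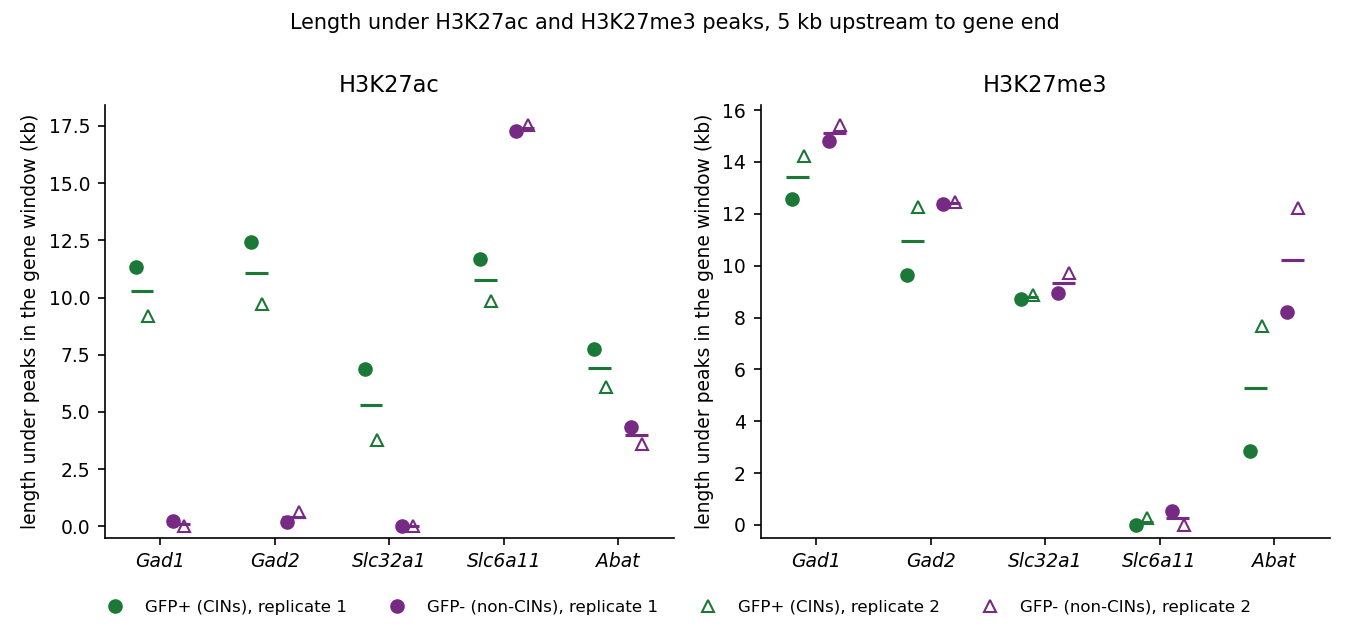
Length in kb under H3K27ac (left) and H3K27me3 (right) peaks from 5 kb upstream of the gene start to the gene end, with 1 point for each list (filled circles, replicate 1; open triangles, replicate 2) and a bar at the mean of the 2 replicates. GFP+ CINs are green and GFP- non-CINs purple. For H3K27ac, *Gad1*, *Gad2* and *Slc32a1* lie between 3757 and 12423 bp in CINs and between 0 and 652 bp in non-CINs.

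*Gad1* (ENSMUSG00000070880.10) spans chr2:70553072-70602014 on the + strand. In its window of 53.9 kb, H3K27ac peaks took up 11344 bp and 9187 bp in CIN replicates 1 and 2, whereas non-CIN replicates 1 and 2 had 219 bp and 0 bp. Values of a pair of replicates are given in this order throughout. All of this lay in 1 stretch, from 4.57 to 16.1 kb after the annotated gene start, which held 5 exons and the first transcript start of the GENCODE basic set, 8.97 kb into the gene record. The CIN peaks over that transcript start were 8678 and 2972 bp long, at percentiles 84.5 and 72.2 of their lists, and the single non-CIN peak, of 219 bp, was at percentile 7.38. The mean of 10265.5 ± 1525 bp in CINs exceeded that of 109.5 ± 155 bp in non-CINs (SD, n = 2) by 10156 bp, and *Gad1* ranked 32nd of the 14650 genes by the difference in the percentage of the window covered. An antisense transcript, *Gad1os*, is annotated over the start of the gene, and its signal cannot be told apart from that of *Gad1*.

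*Gad2* (ENSMUSG00000026787.3) spans chr2:22622205-22693874 on the + strand. In its window of 76.7 kb, H3K27ac took up 12423 bp and 9710 bp for CINs versus 215 bp and 652 bp for non-CINs. The main CIN peaks, of 10945 and 9199 bp, crossed the start of the gene and were longer than 99.9% of the peaks of their lists. They reached percentiles 91.6 and 82.5 by fold enrichment, while the non-CIN peaks, both upstream of the start, were at 28.7 and 28.9. The mean in CINs was 11066.5 ± 1918 bp against 433.5 ± 309 bp in non-CINs (SD, n = 2), a difference of 10633 bp that ranked 54th by percentage of the window. A second CIN stretch, between 23.0 and 24.5 kb after the start, lay in an intron, covered 1217 and 511 bp and was not met by any non-CIN peak. It was weak, at percentiles 23.2 and 7.99, and its CIN-only part ranked 3588th of 4182 such regions by the lower percentile. The end of the neighbouring *Myo3a* lies in the 5 kb upstream of *Gad2*.

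*Slc32a1* (ENSMUSG00000037771.11) spans chr2:158610767-158615748 on the + strand and is the shortest of the 5 genes. In its window of 9.98 kb, H3K27ac took up 6881 bp and 3757 bp for CINs, and no peak was called there for non-CINs. The CIN means of 5319 ± 2209 bp (SD, n = 2) amounted to 53.3% of the window, and this difference from non-CINs was the 4th highest of the 14650 genes. Its length depended on the window, with 2220 bp from 1 kb upstream, 5868.5 bp from 10 kb upstream and 2796.5 bp within 2 kb of the start. The strongest peak lay upstream of the start in both CIN lists, at percentiles 92.9 and 86.4. At the start itself the replicates differed, since a peak of replicate 1 at percentile 71.7 ran over it and replicate 2 had separate peaks upstream and downstream of it. Noncoding genes are annotated on the opposite strand there, *Gm14204* and *Gm14205*.

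*Abat* (ENSMUSG00000057880.12) spans chr16:8513429-8621568 on the + strand. In its window of 113 kb, H3K27ac took up 7745 bp and 6096 bp for CINs versus 4348 bp and 3603 bp for non-CINs, which made the CIN mean 1.74 times that of non-CINs. The top percentiles overlapped between the populations, at 91.9 and 85.2 for CINs versus 89.3 and 81.2 for non-CINs. The lengths differed most in 1 intronic stretch, between 25.2 and 28.2 kb after the start, with 3041 bp and 2899 bp for CINs versus 642 bp and 556 bp for non-CINs. Around the start of the gene the populations overlapped, with 1804 bp and 1258 bp for CINs versus 1235 bp and 1411 bp for non-CINs.

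*Slc6a11* (ENSMUSG00000030307.8) spans chr6:114131241-114249952 on the + strand. Its window of 124 kb held 16 and 13 H3K27ac peaks in CINs and 20 and 15 in non-CINs, covering 11682 bp and 9832 bp for CINs versus 17288 bp and 17554 bp for non-CINs. Both CIN lists were lower than both non-CIN lists, with a mean difference of -6664 bp (CIN minus non-CIN), and *Slc6a11* was the 452nd lowest of the 14650 genes by percentage of the window. The stretch at its start covered 1933 bp and 1763 bp for CINs versus 3274 bp and 2915 bp for non-CINs, and its strongest peaks were at percentiles 28.1 and 24.1 for CINs versus 65.3 and 64.7 for non-CINs. A stretch of the opposite order lay in an intron, between 12.4 and 13.7 kb after the start, with 1191 bp and 1089 bp for CINs versus 514 bp and 659 bp for non-CINs. The lower coverage of this astrocytic transporter in CINs ran with that of the astrocyte markers. These were lower in both CIN lists for 5 of 5 genes, where 18.0% of genes with any H3K27ac peak were. Of the microglial markers 2 of 4 were lower, and of the oligodendrocyte lineage markers 1 of 4 was lower and 1 higher. The part of these cells in the *Slc6a11* difference was not tested. A pseudogene, *Gm8132*, lies within the gene.

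**Figure D2:**
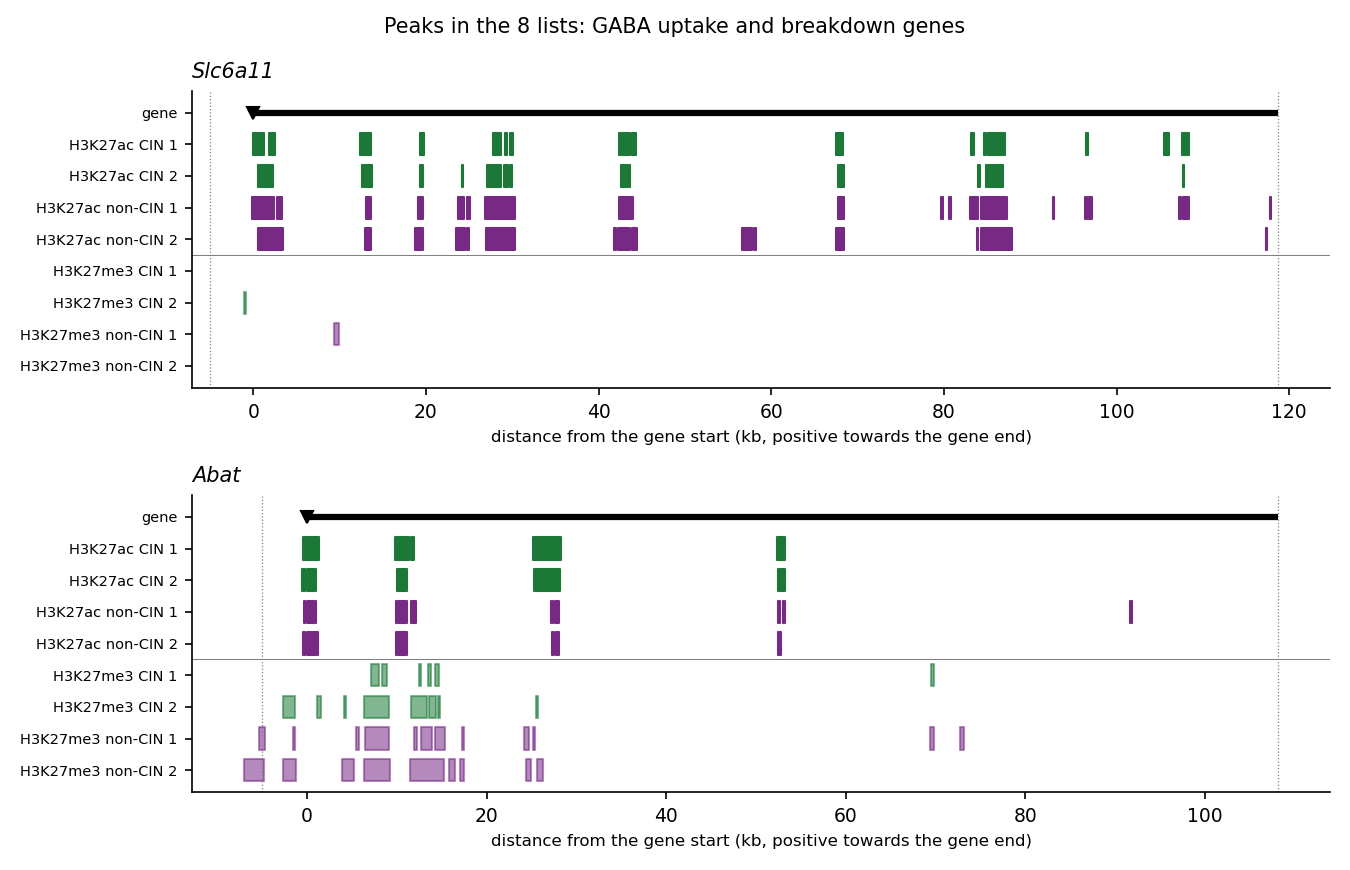
Peaks of the 8 lists at *Slc6a11* (top) and *Abat* (bottom) by distance from the gene start in kb; each row is a list, green for CINs and purple for non-CINs, with H3K27me3 in paler shades, the gene as a black bar, its first transcript start as a triangle and the window between dotted lines. *Slc6a11* has many short H3K27ac peaks in all 4 lists, and *Abat* has its longest CIN peaks between 25.2 and 28.2 kb.

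H3K27me3 was abundant at *Gad1*, *Gad2* and *Slc32a1* in both populations. All 3 had a peak at the 90th percentile or higher in each of the 4 lists, as had 17.1% of the 8932 genes with any H3K27me3 peak, and with *Abat* 4 of 5 genes had a peak in all 4 lists, against 21.1% of all genes. In both CIN lists the covered length was below that of both non-CIN lists for 4 of 5 genes, *Gad1*, *Gad2*, *Slc32a1* and *Abat*, where 11.1% of tested genes showed that order. None showed the opposite order, seen for 7.33%. The same 4 genes had more H3K27ac and less H3K27me3 in CINs, an order found for 4.32% of the 6788 genes with both marks.

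At *Gad1*, *Gad2* and *Slc32a1* the differences in H3K27me3 length were smaller than those in H3K27ac length, whereas at *Abat* the H3K27me3 difference was -4959.5 bp and the H3K27ac difference 2945 bp (CIN minus non-CIN). The sizes of these H3K27me3 differences rested on single lists. At these 4 genes the direction could not change with 1 list left out, because both CIN lists lay below both non-CIN lists. Without CIN replicate 1 the difference was -172.5 bp instead of -1488 bp at *Gad2*, -893 bp instead of -1724.5 bp at *Gad1* and -2541.5 bp at *Abat*, and without CIN replicate 2 it was -2803.5 bp at *Gad2*. Without non-CIN replicate 2 it was -142.5 bp instead of -538.5 bp at *Slc32a1* and -2952 bp at *Abat*, and without non-CIN replicate 1 it was -934.5 bp at *Slc32a1*. At *Gad1* the mark covered 12577 bp and 14240 bp for CINs versus 14825 bp and 15441 bp for non-CINs. At *Gad2* it covered 9626 bp and 12257 bp for CINs versus 12390 bp and 12469 bp for non-CINs, so that the nearest lists were 133 bp apart. At *Slc32a1* it covered 8717 bp and 8868 bp for CINs versus 8935 bp and 9727 bp for non-CINs, and these values are bounded by the window, since the H3K27me3 stretch ran from -4.745 to 12.03 kb relative to the start, beyond the gene end. The CIN means at these 3 genes were 0.886, 0.880 and 0.942 times those of non-CINs. Over the genome H3K27me3 peaks also covered less in CINs within each replicate, 34.5 Mb and 44.2 Mb for CINs versus 39.4 Mb and 49.8 Mb for non-CINs. Whether the differences at these genes go beyond that was not tested. The order at *Gad2* and *Slc32a1* was lost when peaks 500 bp or less apart were merged, that at *Gad2* also when only peaks with −log10 q of at least 4 or only the strongest 30000 of each list were kept, and that at *Slc32a1* also with a window from 1 kb or 10 kb upstream or with RefSeq gene bounds. Within 2 kb of the annotated start none of the 4 genes kept the order. *Gad1* had no H3K27me3 peak there in any list, and its first transcript start lies 8.97 kb into the gene record.

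By fold enrichment, the top H3K27me3 peak at *Gad1* stood at percentiles 93.4 and 97.3 for CINs versus 99.1 and 98.9 for non-CINs. For *Gad2* the percentiles were 96.2 and 97.3 against 99.3 and 99.2, and for *Slc32a1* 96.6 and 98.8 against 99.5 and 98.9. A percentile depends on the number of peaks in its list, and the CIN lists were the shorter, so that a peak of the same rank stood at a lower percentile there. No order between the populations is therefore read from these percentiles.

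*Abat* carried H3K27me3 of another form, 6 to 12 separate peaks of at most 3871 bp with none in the promoter. They covered 2851 bp and 7687 bp for CINs versus 8221 bp and 12236 bp for non-CINs, and the CIN replicates differed from each other by more than CIN replicate 2 did from non-CIN replicate 1. *Slc6a11* was almost free of the mark, with 0 bp and 258 bp for CINs versus 533 bp and 0 bp for non-CINs, and these overlapped.

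**Figure D3:**
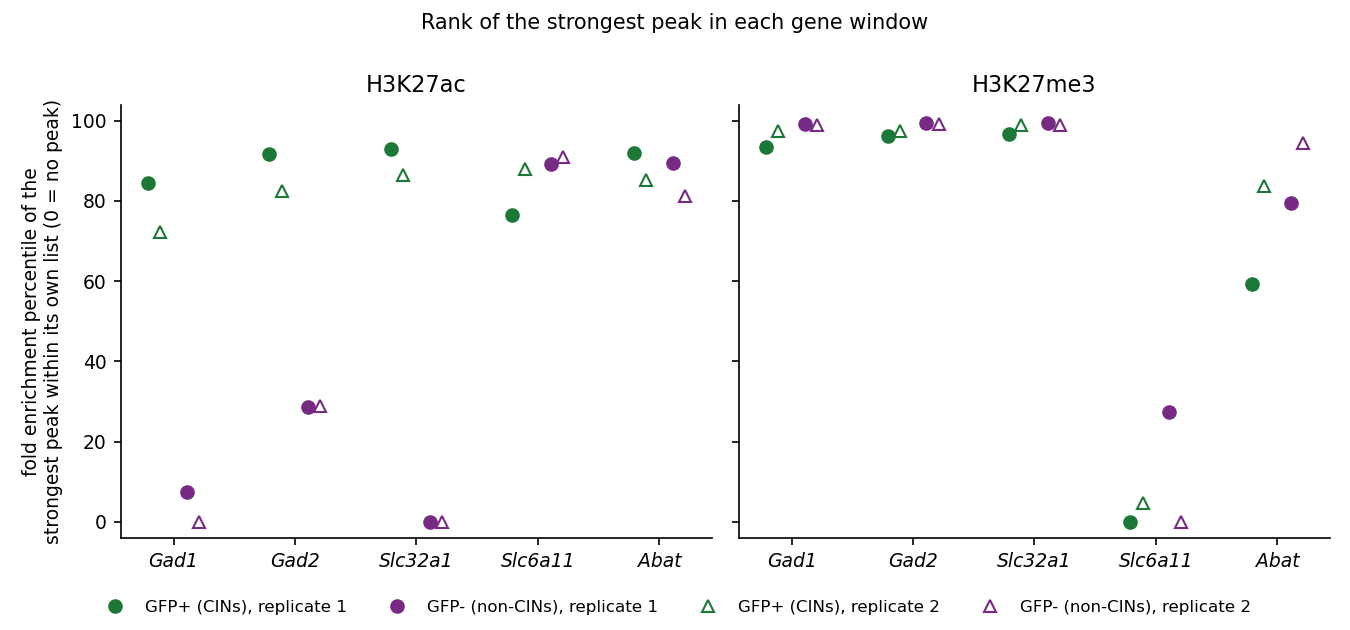
Percentile of fold enrichment, within its own list, of the strongest H3K27ac (left) and H3K27me3 (right) peak in each gene window, with 0 where a list has no peak; circles are replicate 1 and triangles replicate 2, green for CINs and purple for non-CINs. H3K27me3 at *Gad1*, *Gad2* and *Slc32a1* lies at or above 93.4 in all 4 lists, and H3K27ac at or below 28.9 in non-CINs.

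In CINs the acetylated stretches of *Gad1*, *Gad2* and *Slc32a1* were also called as H3K27me3 in the same population. Of the CIN H3K27ac length, 90.7% and 89.1% lay under CIN H3K27me3 of the same replicate at *Gad1*, 75.4% and 94.7% at *Gad2*, and 87.0% and 87.8% at *Slc32a1*. At least 50% was under both marks in both replicates at these 3 of 5 genes, compared with 0.621% of the 13051 genes with H3K27ac in both CIN lists. At *Abat* the values were 0% and 4.81%, and at *Slc6a11* both were 0%. The few non-CIN H3K27ac peaks of *Gad1* and *Gad2*, of 215 to 652 bp, lay in full under non-CIN H3K27me3. Marks on different cells of a pool, on different alleles and on different tails of a nucleosome cannot be told apart in these lists. Read across populations, 92.2% and 91.9% of the CIN H3K27ac length at *Gad1*, 84.3% and 91.7% at *Gad2* and 90.2% and 100% at *Slc32a1* coincided with H3K27me3 of non-CINs.

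**Figure D4:**
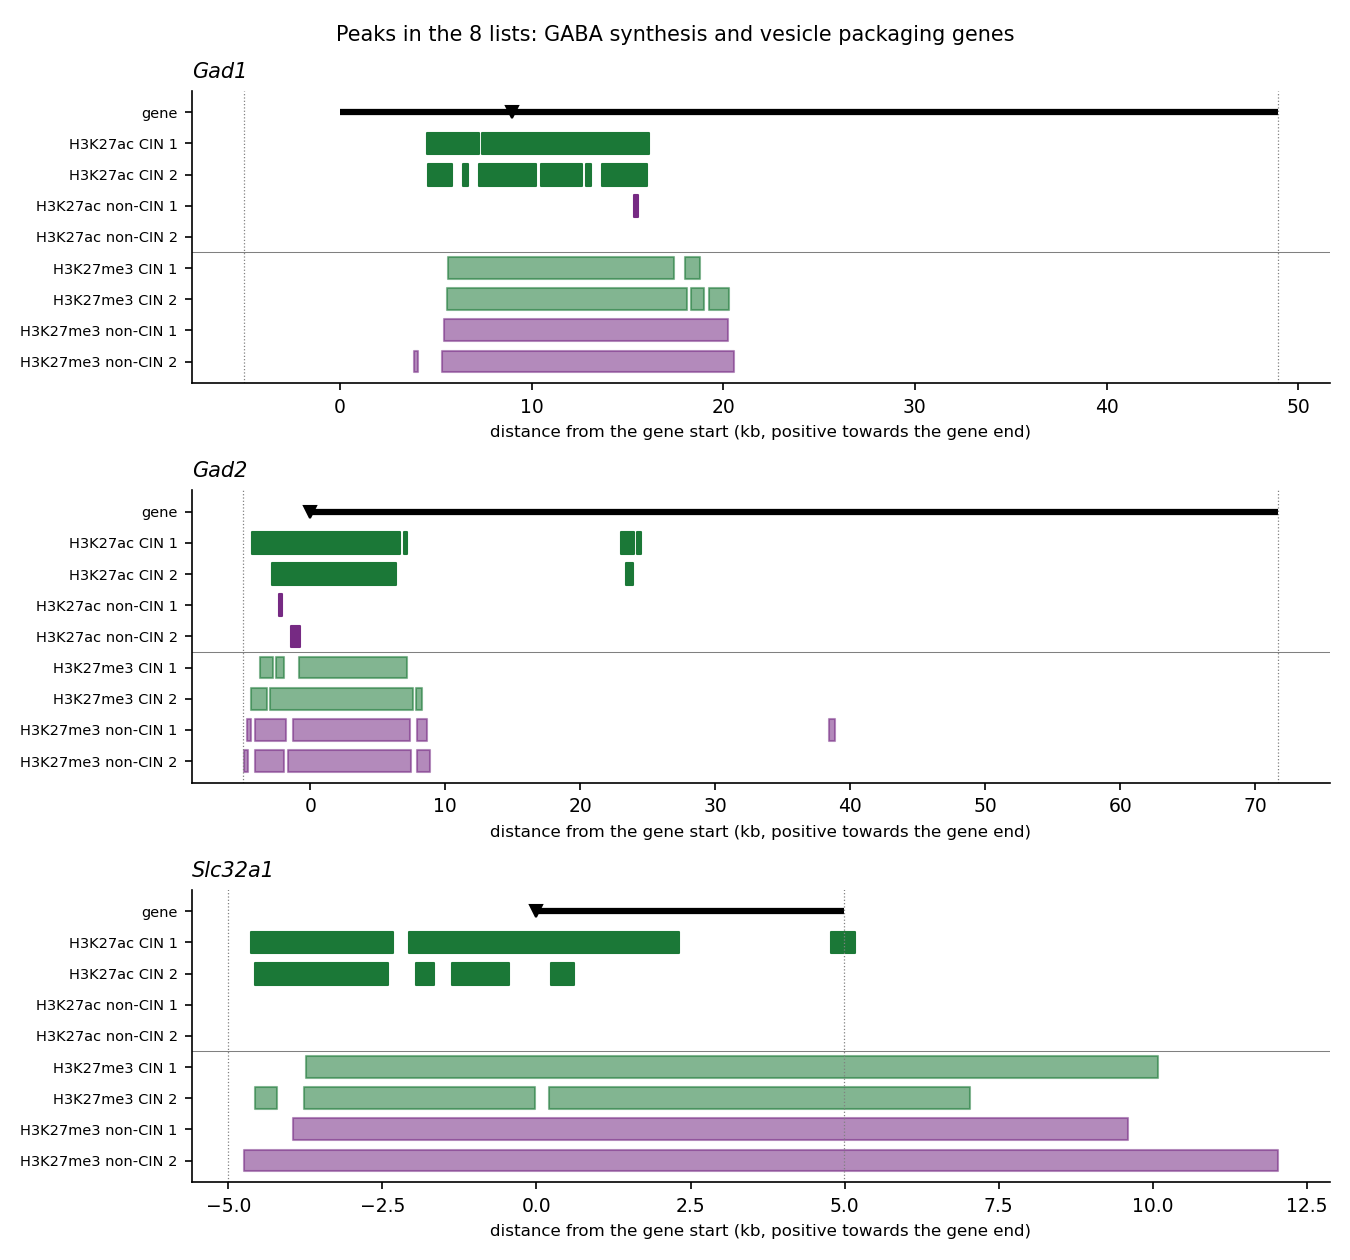
Peaks of the 8 lists at *Gad1*, *Gad2* and *Slc32a1* by distance from the gene start in kb, drawn as for *Slc6a11* and *Abat* (green, CINs; purple, non-CINs; paler shades, H3K27me3; triangle, first transcript start). Most of the CIN H3K27ac length, such as that between 4.57 and 16.1 kb at *Gad1*, lies over H3K27me3 peaks of both populations.

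Promoter H3K27ac, read from 1 kb upstream to 100 bp downstream of the annotated start, was present in both CIN lists and in no non-CIN list at *Slc32a1* alone, 1 of the 4 genes with a promoter peak in any list, against 1.48% of genes. At *Gad2* all 1100 bp were covered in both CIN lists, but 249 bp were also covered in non-CIN replicate 2, and without that list *Gad2* also met the rule. *Gad1* had no peak at the start of its gene record, and at its first transcript start, a position chosen after the values were seen, all 1100 bp were covered in both CIN lists and none in non-CINs. Within the windows, 3 H3K27ac regions were CIN-only, meaning merged peaks that met no peak of the other population in the same replicate and were shared by both replicates. These lay at *Gad2* and *Slc32a1*, 2 of 5 genes, and 10.2% of genes held such a region. *Gad1* had none because its merged peak in CIN replicate 1 met the 219 bp peak of non-CINs, and it had 3 when peaks weaker than the strongest 30000 of each list were left out. No window held a non-CIN-only region.

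Beyond the windows and within 400 kb, 13 CIN-only and 4 non-CIN-only H3K27ac regions were found. At least 1 CIN-only region lay near 4 of 5 genes, where 55.8% of all genes had 1, and a non-CIN-only region near 2 of 5, where 51.0% had 1. Neither share says anything particular about the 5 genes. *Slc32a1* had 6 distal CIN-only regions, and 2.15% of genes had 6 or more. *Slc6a11* had 3, where 16.0% of genes had 3 or more, and *Gad1* and *Gad2* had 2 each, where 30.2% had 2 or more. *Abat* had none. The counts of single genes moved with the reach and the replicates. Within 1 Mb *Gad1* had 15 and *Slc32a1* 12. Within 400 kb they had 16 and 10 from replicate 1 alone, and 3 and 11 from replicate 2 alone.

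**Figure D5:**
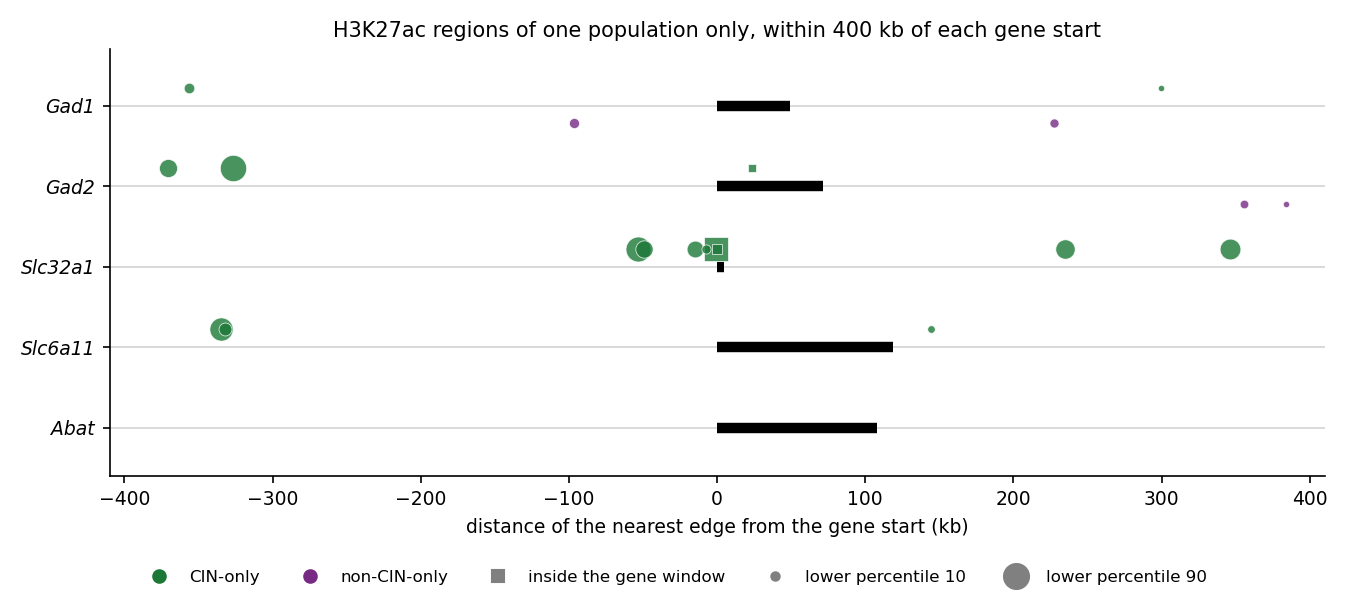
H3K27ac regions found in only 1 population by distance in kb of their nearest edge from each gene start (CIN-only, green, above the line; non-CIN-only, purple, below it; squares, inside the gene window), with symbol size rising with the lower of the 2 replicate percentiles and the gene as a black bar. *Slc32a1* has 6 distal CIN-only regions, and the largest symbol is the *Gad2* region 327 kb upstream.

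The distal region with the highest percentiles was that of *Gad2*, chr2:22293017-22295607, 327 kb upstream of the start and overlapping an exon of *Myo3a*. Its percentiles were 96.4 and 96.5 in CINs, and by the lower of these it stood first among the 4182 CIN-only regions of the genome. It is 2591 bp long, met no H3K27me3 peak in any list, and no other protein-coding start is annotated between it and *Gad2*, its nearest start being that of *Myo3a* at 65.5 kb. A second region, 371 kb upstream in an intron of *Myo3a*, was at percentiles 72.5 and 56.9.

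For *Slc32a1* the strongest distal region, chr2:158555474-158557591, lay between genes 53.2 kb upstream of the start, was 2118 bp long and stood at percentiles 93.9 and 89.9, the 14th of the 4182. Regions 346 and 235 kb downstream were at percentiles 78.9 and 69.5 and at 79.0 and 63.0, with 4 other protein-coding starts between them and *Slc32a1*, and the second overlapped an exon of *Dhx35*. The other 3 lay 7.48 to 49.3 kb upstream. Of the 6 regions, 3 overlapped H3K27me3 in at least 1 list.

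For *Slc6a11* the strongest region, chr6:113794617-113796348, lay 335 kb upstream and overlapped an exon of *Atp2b2*, at percentiles 87.1 and 81.4. Another was 332 kb upstream in an intron of the same gene, at 87.1 and 31.8. The third, at 26.6 and 6.51, lay between genes 144 kb downstream of the *Slc6a11* start. The regions of *Gad1* were short and weak, 281 bp with a lower percentile of 20.7 in an intron of *Myo3b*, 357 kb upstream, and 315 bp at 45.0 and 0.233, 300 kb downstream and between genes. Its non-CIN-only regions, of 200 and 210 bp, lay 96.6 kb upstream at percentiles 68.5 and 18.7 and 228 kb downstream at 13.7 and 13.9. Those of *Gad2*, of 257 and 137 bp in introns of *Abi1*, lay 355 and 384 kb downstream at percentiles 11.4 and 36.7 and 59.9 and 0.192. None of these non-CIN-only regions near *Gad1* and *Gad2* was kept with −log10 q of at least 4 or with the strongest 30000 peaks. Nothing in the lists ties a distal region to the gene it was collected for.

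The central 200 bases of the strongest CIN-only region of each kind are shown so that the sequence acetylated in CINs alone can be read for the 4 genes that had such a region, which leaves out *Abat*, with capitals for the same 3 cores on either strand.
*Gad2* distal region, chr2:22294212-22294411, + strand: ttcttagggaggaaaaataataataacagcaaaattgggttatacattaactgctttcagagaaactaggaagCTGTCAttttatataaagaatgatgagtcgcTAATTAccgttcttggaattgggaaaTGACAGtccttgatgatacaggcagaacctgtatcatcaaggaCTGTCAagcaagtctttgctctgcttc
*Slc32a1* distal region, chr2:158556433-158556632, + strand: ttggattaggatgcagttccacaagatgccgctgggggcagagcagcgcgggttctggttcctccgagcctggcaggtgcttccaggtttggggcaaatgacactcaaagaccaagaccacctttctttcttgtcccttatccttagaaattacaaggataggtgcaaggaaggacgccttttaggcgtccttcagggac
*Slc6a11* distal region, chr6:113795383-113795582, + strand: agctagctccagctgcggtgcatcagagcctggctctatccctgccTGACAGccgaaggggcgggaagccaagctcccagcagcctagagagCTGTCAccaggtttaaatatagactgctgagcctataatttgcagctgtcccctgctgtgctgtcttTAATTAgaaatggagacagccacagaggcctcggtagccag
*Slc32a1* window region, chr2:158608153-158608352, + strand: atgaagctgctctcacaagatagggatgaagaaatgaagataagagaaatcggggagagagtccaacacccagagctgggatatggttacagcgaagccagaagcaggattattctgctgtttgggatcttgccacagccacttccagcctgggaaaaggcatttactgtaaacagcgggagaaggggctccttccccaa
*Gad2* window region, chr2:22645753-22645952, + strand: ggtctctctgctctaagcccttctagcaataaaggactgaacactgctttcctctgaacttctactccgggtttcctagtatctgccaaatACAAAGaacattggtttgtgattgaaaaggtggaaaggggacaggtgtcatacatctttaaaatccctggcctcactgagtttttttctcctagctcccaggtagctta
*Gad1* distal region, chr2:70196147-70196346, + strand: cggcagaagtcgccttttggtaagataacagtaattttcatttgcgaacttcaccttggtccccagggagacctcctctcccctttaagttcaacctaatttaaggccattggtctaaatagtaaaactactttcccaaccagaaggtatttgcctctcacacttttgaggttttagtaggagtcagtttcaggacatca
The centre of the *Gad2* distal region held 1 DLX and LHX core and 3 MEIS cores, and that of the *Slc6a11* distal region 1 and 2. The centres of the distal regions of *Slc32a1* and *Gad1* and of the *Slc32a1* window region held none of the 3 motifs, and the *Gad2* window region held 1 SOX core. Over 4181 CIN-only regions, 10.9% of such 200-base centres held the DLX and LHX core, 27.4% the SOX core and 19.2% the MEIS core, against 3.98%, 18.7% and 13.2% of the centres of 27742 regions shared by all 4 H3K27ac lists. No matches overlapped in any sequence shown. Over its full 2591 bp the *Gad2* region held 3 DLX and LHX, 4 SOX and 7 MEIS cores and was 39.8% GC, and the 2118 bp region of *Slc32a1* held 1, 1 and 3 and was 54.2% GC. A match describes the sequence and not a bound site.

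Of 10 other genes of GABA and glutamine metabolism, fixed as a list beside the 5, none had a longer H3K27ac coverage in both CIN lists and 1 a shorter, *Slc38a3*, a glutamine transporter, with 5421 bp and 4419 bp for CINs versus 7791 bp and 8497 bp for non-CINs. None of the 6 with any H3K27me3 peak had the mark shorter in both CIN lists. Like *Slc32a1*, *Aldh9a1* had 6 or more distal CIN-only H3K27ac regions. The median difference in the H3K27ac-covered percentage of the window, CIN minus non-CIN, was 13.9 percentage points for the 5 genes, -0.18 for the other 10 and 0.038 for all 14650 genes. For H3K27me3 it was -3.20 points for the 5 genes, -0.32 for the 6 and -0.15 for all 8932. *Gls2*, a glutaminase, was the only gene of the 10 with H3K27me3 at the 90th percentile or higher in all 4 lists.

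The genes most like each of the 5 were found by the Euclidean distance between top percentiles over the 8 lists. For *Slc32a1* they were *Dlx6*, *Sp9* and *Shtn1*, at distances of 4.65, 9.20 and 12.2 percentile points. *Dlx6* and *Sp9* encode transcription factors of the ventral forebrain. Their lack of H3K27ac peaks in non-CINs enters the distance itself and is not a separate likeness. For *Gad1* they were *Wdr54* and *1700003E16Rik*, with identical values at a distance of 8.94, and *Prmt8* at 9.74. *Gad2* was less closely matched, by *Fam19a2*, *Cacnb4* and *Kcnh8* at 16.9, 19.9 and 21.1. *Slc6a11* was nearest to *S100a13*, *Pdcl3* and *Nrcam* at 10.3 to 12.5, and *Abat* to *Ncam1*, *Tjp1* and *Nf2* at 11.8 to 13.6.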

How the data were processed

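Native ChIP of MNase-digested chromatin was sequenced by the authors as single-end 50 nt reads, aligned to mm10 with BWA 0.7.15, filtered at a mapping quality of 30, and called for broad peaks with MACS2 against the matched input of each replicate (q cutoff 0.01, fragments extended to 200 bp). The methods and the submitters' processing notes give different MACS2 versions, and the notes name 2.2.7. The deposited lists give for each peak its position, an integer score, a fold enrichment (a ratio over the background) and −log10 p and −log10 q, with no reads, so the depth behind each peak is unknown. Fold enrichment was used here only as a percentile within its list.

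Covered lengths were computed from deposited peaks with Python 3.11.15 and NumPy 2.4.6 over GENCODE M21 protein-coding genes, and regions of 1 population from peaks merged at 500 bp, within replicate numbers. Code was checked against bedtools 2.31.1 and tested on simulated data. Exact permutation tests used SciPy 1.17.1. The 4 inputs have no list used here. Named genes were the 5 genes, a list of 10 others of the pathway, up to 3 distal regions of each kind per gene, and the 3 genes most alike. Of the pathway and marker lists, 2 genes are not reported here. Genes and lists were chosen with earlier results of these data known. Alternatives changed the peak threshold, list length, window, merging, overlap, pairing, libraries and annotation. The 2 replicates were independent experiments, and whether samples with the same number share animals is not given in the sources used here.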

Additional observations from a re-analysis of the deposited data

How the results depend on the processing

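Length under peaks grows with the depth and threshold of a list, and the reads behind the lists are not given, so a missing peak is not an absent mark. H3K27ac was higher in both CIN lists for the same 4 genes under every alternative of threshold, list length, merging, window and annotation but 1. That was 2 kb on either side of the TSS, where 2 remained (*Gad2*, *Slc32a1*). The number with less H3K27me3 fell from 4 to 2 with peaks merged and to 0 within 2 kb of the TSS, where the *Abat* difference became 2.5 bp, was 3 under 5 other settings, and ran from 4 to 5 with a library left out. *Gad1* held neither mark within 2 kb of its annotated start in any list, and the cause of the other changes was not tested. With CIN and non-CIN lists compared as pairs (replicate block) both counts stayed at 4. Neither pairing nor leaving out a library can lose a gene whose lists already stand fully apart, so these settings do not test the order.

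Promoter H3K27ac in CINs alone, 1 gene, became 2 with −log10 q of at least 4, with the strongest 30000 peaks, with RefSeq bounds and with the first transcript start, which was chosen after seeing the data, and ran from 1 to 2 with a library left out, with 2 without non-CIN replicate 2. CIN-only regions in the windows, 3, became 7 with −log10 q of at least 4, 7 with the strongest 30000 peaks, 7 with no merging and 6 with no replicate block, and ran from 4 to 8 from a single replicate. Non-CIN-only regions there, 0, became 1 with −log10 q of at least 4, 2 with the strongest 30000 peaks, 1 with no merging and 2 with 50% reciprocal overlap, and ran from 2 to 6 from a single replicate. Distal CIN-only regions, 13, became 5 within 200 kb and 35 within 1 Mb, and ran from 24 to 39 from a single replicate. Distal non-CIN-only regions, 4, all near *Gad1* and *Gad2*, became 2 with −log10 q of at least 4 and 2 with the strongest 30000 peaks, both times 1 at *Slc32a1* and 1 at *Slc6a11* and none of the 4, 9 with 50% reciprocal overlap, 1 within 200 kb and 8 within 1 Mb, and ran from 19 to 26 from a single replicate. A single replicate needs no second list to share the region.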
